A study of Mus musculus with 185 samples.

Results

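The genes described here are Timp1 and Timp2 (tissue inhibitors of metalloproteinases), the matrix metalloproteases Mmp2, Mmp9, Mmp12 and Mmp14, and the sheddases Adam8, Adam10 and Adam17, 9 of the 45661 genes listed for each cell. They were chosen by name from this family, with Timp2 chosen on its measured ratio between the cells of different origin and the others with their read counts in the same cells known, so their values are a description and support nothing by themselves. Single LCs (Langerhans cells, the mononuclear phagocytes of the epidermis) came from bone marrow chimeras (BMC). B6 Cd207DTR mice carrying CD45.1 were lethally irradiated and received wild-type CD45.2 bone marrow. Later they were given 5 ng of DT (diphtheria toxin) per gram of body weight, and epidermal cells were sorted 2 months after that. Cd207DTR places the DT receptor under control of Cd207, the langerin gene of LCs, so that DT depletes host cells that express it. Host cells (sorted as E) are eLCs and donor cells (sorted as M) are moLCs, and both came from mice given the same transplant and the same DT. The host cells were irradiated and carry the DT receptor, while the donor marrow was wild-type and given after the irradiation. Irradiation and sensitivity to DT therefore cannot be told apart from origin. The age and sex of the mice are not given, and the sort took lineage-negative CD11c+ CD11b+ CD24+ MHCII+ CD326+ cells one by one.

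The deposited values are read counts of full-length cDNA without molecular identifiers, from cells on 2 plates. Cells with at most 5% of reads on mitochondrial genes were kept, which left 67 moLCs on plate 1 and 36 on plate 2, and 79 eLCs (29 and 50), with 432614 to 4525429 reads each. The reads of all cells of the same origin were added up and given per 1000000 reads (CPM), and moLCs were set against eLCs as a log2 ratio. No label ties a cell to an animal, so each origin counts as 1 sample, no test was possible, and the 95% intervals given (exact Poisson for CPM, exact Clopper-Pearson for shares of cells, binomial for ratios) cover counting error only. The Langerhans cell markers H2-Aa, Cd74 and Mfge8 had reads in every kept cell, Epcam in all but 1 moLC and 1 eLC, Cdh1 in 56 moLCs and 32 eLCs, and Cd207 in all but 1 moLC, at 26237 CPM in moLCs against 2159 CPM in eLCs. The summed level of the 6 Langerhans markers ran from 10773 to 222180 CPM in moLCs, and from 71279 to 185763 CPM in eLCs. A few cells stood apart from the rest. A moLC of plate 1 had no Cd207 read and held the lowest of these sums, and 2 moLCs and 2 eLCs had reads on more than 6000 genes, against a median of 4026 genes in moLCs and 4488 in eLCs. Ratios and calls that change markedly without these 5 cells are given both ways.

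Matrix metalloproteases are zinc endopeptidases that cut collagens, elastin and other matrix proteins, and ADAM sheddases are related zinc proteases that release the outer parts of membrane proteins. TIMPs block matrix metalloproteases by placing their amino-terminal cysteine on the catalytic zinc. TIMP2 is unusual in that it also bridges membrane-bound MMP14 to the proform of MMP2, which MMP14 then activates. LCs that leave the epidermis have to cross the basement membrane, and MMP9 and MMP2 are the gelatinases best known for that step.

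The parts that meet each other when a TIMP blocks a matrix metalloprotease are short, and their coding stretches are shown here. The same stretch of the ADAMs is printed beside them for comparison. In the 7 proteases, the first 30 coding bases of the zinc-binding motif of the metzincin superfamily are printed. They end just before the codon of the last histidine of the motif. The codons of the first histidine, the catalytic glutamate, the next histidine and the glycine are in capitals. In the inhibitors, the 30 coding bases at the start of the mature protein are printed, with the codons of the first pair of cysteines in capitals. All were read 5′ to 3′ on the coding strand from GENCODE M21 transcripts of GRCm38.
Timp1: TGTagcTGTgccccaccccacccacagaca
Timp2: TGCagcTGCtccccggtgcacccgcaacag
Mmp2: CATGAGttcggcCATgccatgGGGctggaa
Mmp9: CACGAGttcggcCATgcactgGGCttagat
Mmp12: CATGAActtggcCATtccttgGGGctgcag
Mmp14: CATGAGttggggCATgccctaGGCctggaa
Adam8: CATGAGctgggcCACaacctgGGCatgagc
Adam10: CATGAAgttggaCATaactttGGAtctcca
Adam17: CATGAAttgggaCATaattttGGAgcagaa
Each protease held the motif once, and each stretch lies within 1 coding exon. The Timp1 stretch is in exon 2 of 6 (chrX:20871111-20871140, plus strand) and the Timp2 stretch in exon 1 of 5 (chr11:118354983-118355012, minus strand). The Mmp9 stretch is in exon 8 of 13 (chr2:164951133-164951162) and the Mmp12 stretch in exon 5 of 10 (chr9:7352914-7352943), both on the plus strand. The encoded TIMP1 and TIMP2 precursors have 205 and 220 residues and were identical at 39.7% of 234 aligned positions.

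Timp2 (ENSMUSG00000017466, chr11:118301069-118355740, minus strand) was read in more moLCs than eLCs and at a higher level. It had a read in 26 moLCs (25.2%, interval 17.2 to 34.8%) and in 2 eLCs (2.53%, interval 0.308 to 8.85%). Its summed level was 27.8 CPM (interval 27.2 to 28.4) in moLCs and 2.14 CPM (interval 1.95 to 2.34) in eLCs, with a log2 ratio of 3.70 (interval 3.57 to 3.84). Most cells of both origins therefore had no Timp2 read, and the difference lay in the moLCs that had one.

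The plates differed in how far apart the origins were. On plate 1, Timp2 had reads in 11 of the 67 moLCs and in 2 of the 29 eLCs, at 15.6 and 5.30 CPM, a log2 ratio of 1.56. On plate 2 it had reads in 15 of the 36 moLCs (41.7%) and in 0 of 50 eLCs (interval up to 7.11%, and 3 cells of 50 would be 6%), and the level in moLCs was 50.6 CPM. With eLCs set to 3 reads over the group, the log2 ratio on plate 2 was at least 11.10. That bound holds for this setting only. The eLCs of plate 1 with Timp2 held 242 and 224 reads, so 1 such cell on plate 2 would put the ratio far lower. The direction was the same on both plates and the size was not, and on plate 1 the intervals of the shares overlapped (8.49 to 27.5% and 0.846 to 22.8%).

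Cells with Timp2 held many reads of it. The lowest was 24 reads, the median 195 and the highest 1094 in the 26 moLCs, and the 2 eLCs, both of plate 1, held 242 and 224 reads, or 86.3 and 86.1 CPM. Per cell with a read, the eLCs thus lay inside the range of the moLCs (8.14 to 424 CPM, median 70.2). With all cells thinned to the same 2052512 reads (7 moLCs and 12 eLCs were too shallow for this), the shares were 26% of 96 moLCs and 2.99% of 67 eLCs, close to those before thinning. Among moLCs, those with a Timp2 read had a median of 3143669.5 reads and those without 2902351.

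The sum did not rest on a single moLC, as the first cell held 13.1% of the Timp2 reads of moLCs. It leaned on the eLCs instead. Leaving out each cell in turn gave log2 ratios from 3.51 to 4.74, with the highest value reached without the eLC of 242 reads. The 3 moLCs with the most Timp2 reads, all on plate 2, held 1094, 922 and 896 reads.

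The marker lists of other skin cells gave these values in the cells with Timp2. None of 6 fibroblast markers (Col1a1, Col1a2, Col3a1, Dcn, Lum and Pdgfra) had a read in any kept cell of either origin. Of 6 keratinocyte markers, 4 had reads in moLCs and 3 in eLCs, in 17 and 6 cells, with summed levels from 0 to 542 CPM and from 0 to 95.3 CPM, and Krt1 and Dsp were at 0 in both origins. Among the 26 moLCs with Timp2, 4 had a keratinocyte read, none above 167 CPM. T cell, melanocyte, neutrophil and endothelial markers were read in 1 of the 26 moLCs each, dermal DC1 markers in 3 and mast cell markers in 0. Of 4 monocyte markers, 2 had reads in moLCs, and 14 of the 26 had a read of one, from 0 to 357 CPM, against 44 moLCs in all. Their part in the Timp2 values was not tested. Cep295nl, a gene nested within Timp2 on the same strand, shares no exon base with it and had 0 reads.

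**Figure D1:**
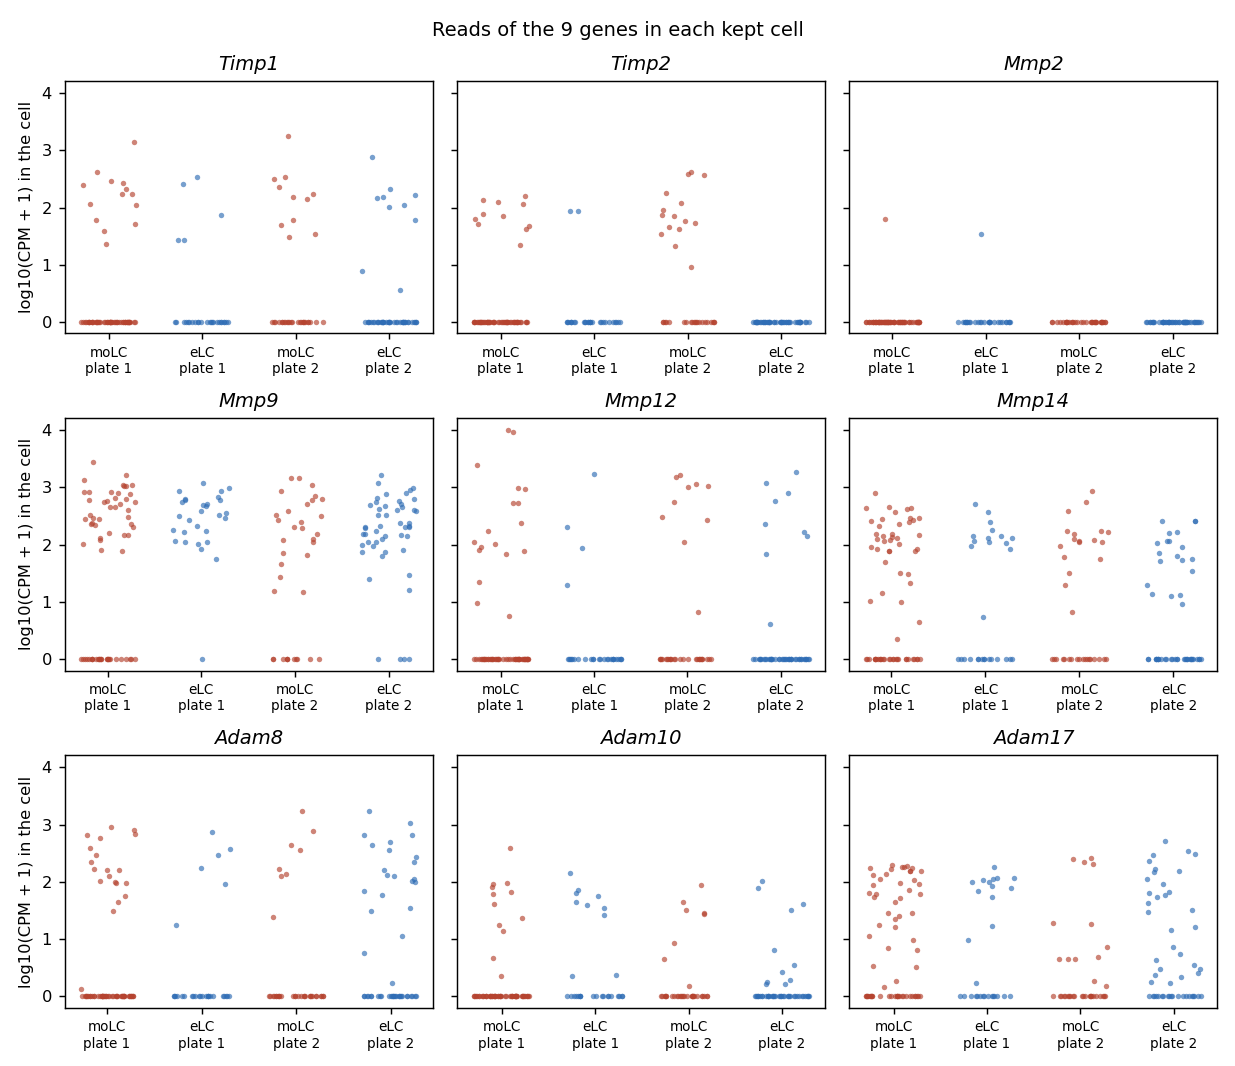
Level of each of the 9 genes in each kept cell, as log10(CPM + 1), by origin and plate, with 1 point per cell (red moLCs, blue eLCs) and points at 0 for cells without a read. Timp2 is read in 26 moLCs and 2 eLCs, Mmp9 in 65 moLCs and 74 eLCs, and the 2 highest points of Mmp12 are moLCs of plate 1.

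To set the 9 genes against all others, a rule of size was used: detection (1 read or more) in 25% or more of the cells of either origin and at least a 2-fold difference in the same direction in all cells, on plate 1 and on plate 2. Of 6522 genes with a read in that share of cells, 132 (2.02%) passed, 53 (0.813%) toward moLCs and 79 (1.21%) toward eLCs. With TMM factors, which move the log2 ratio of all genes up by 0.10, the split was 71 and 62. Of the 9 genes, 7 had a read in enough cells, all but Timp1 and Mmp2, and 1 passed, Timp2, toward moLCs. Since Timp2 was chosen on this contrast, its passing is not a finding. Its log2 ratio was the 5th highest of the 6522, and for the same reason this rank is no support. Timp2 entered the 6522 through moLCs alone, with a read in 25.2% of moLCs against 2.53% of eLCs. The call also rested on the minimum share: 25.2% of moLCs lies just inside it, Timp1 at 24.3% lies just outside, and without the 5 cells that stood apart Timp2 had a read in 24 of 100 moLCs and no longer passed, although its log2 ratio was 3.44 (1.38 on plate 1 and at least 10.80 on plate 2).

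Timp1 (ENSMUSG00000001131, chrX:20870166-20874735), the inducible inhibitor of the family, was read in 25 moLCs (24.3%, interval 16.4 to 33.7%) and 15 eLCs (19%, interval 11 to 29.4%). Its level was 58.4 CPM in moLCs against 34.2 CPM in eLCs, with a log2 ratio of 0.77, with 0.65 on plate 1 and 1.14 on plate 2. Few cells made up the sums, as the first 3 cells held 50.7% of the reads in moLCs and 61.8% in eLCs. Without each cell in turn the ratio ran from 0.33 to 1.34, and without the 5 cells that stood apart it was 0.39, with -0.17 on plate 1. Both shares lie within each other's interval. Syn1 overlaps Timp1 on the opposite strand without a shared exon base and had 982 reads in all, in 3 moLCs and 8 eLCs.

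The other inhibitors were not detected. Timp3, a matrix-bound inhibitor that also blocks ADAM17, Timp4 and the membrane-anchored inhibitor Reck had 0 reads in all kept cells. For scale, 3 reads over the group would be 0.00999 CPM in the moLCs and 0.0138 CPM in the eLCs. These values are no ceiling, as rare cells with many reads could have been missed. Timp1 and Timp2 were thus the TIMPs read in these cells, and they were read in the same moLC 6 times. Timp2 was read in 24% of the moLCs with Timp1, against 25.2% of all moLCs. Timp1 was read in 23.1% of the moLCs with Timp2, against 24.3% of all moLCs.

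Mmp9 (ENSMUSG00000017737, chr2:164940780-164955850), gelatinase B, was the metalloprotease read in most cells, and it was read in fewer moLCs than eLCs. It had a read in 65 moLCs (63.1%, interval 53 to 72.4%) and in 74 eLCs (93.7%, interval 85.8 to 97.9%). The share was lower in moLCs on plate 1 (59.7% against 96.6%) and on plate 2 (69.4% against 92%), and after thinning (62.5% against 97%). The intervals of the origins do not overlap in all cells or on plate 1, and on plate 2 they do (51.9 to 83.7% and 80.8 to 97.8%).

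The summed level of Mmp9 differed far less than its share. It was 315 CPM in moLCs against 380 CPM in eLCs, with a log2 ratio of -0.27, with -0.25 on plate 1 and -0.37 on plate 2, and leaving out each cell gave -0.32 to -0.17. Cells with a read held from 20 to 4586 reads in moLCs, median 966, and from 26 to 6770 in eLCs, median 676. So fewer moLCs held Mmp9 reads, and those that did had a higher median. No cell with Mmp9 had fewer than 10 reads of it, so a minimum of 10 reads left the shares as they were.

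The difference in share, -30.6 percentage points, was set against the same 6522 genes, whose median difference was -4.12 points. A value as low or lower was found in 0.245% of them. By a rule chosen after the values were seen, a share at least 20 points lower in moLCs in all cells and on each plate, 60 genes (0.92%) passed, and of the 7 genes of the family read in enough cells 1 did, Mmp9. In the plot of share against ratio, Mmp9 therefore lies at the left edge close to a ratio of 0, and Timp2 at the upper right.

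**Figure D2:**
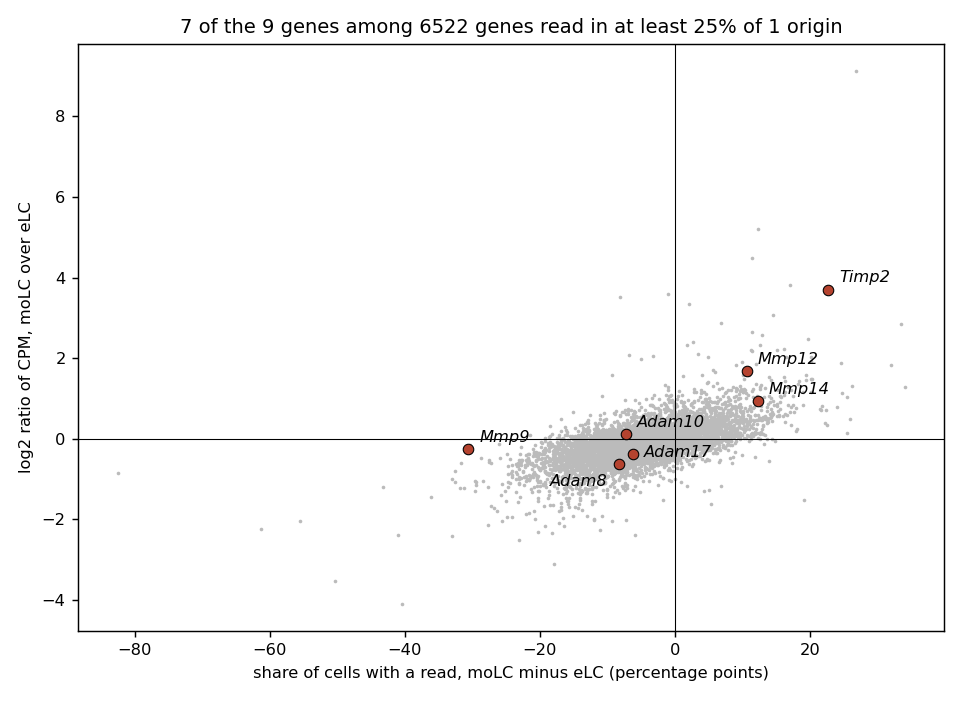
Difference in the share of cells with a read (moLC minus eLC, percentage points) against the log2 ratio of CPM for 6522 genes (grey) and the 7 genes of the family among them (red). Timp2 lies at 22.7 points and 3.70, Mmp9 at -30.6 points and -0.27, and the other 5 lie nearer the bulk of genes.

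Mmp12 (ENSMUSG00000049723, chr9:7344381-7369499), macrophage elastase, was read in 28 moLCs (27.2%, interval 18.9 to 36.8%) and 13 eLCs (16.5%, interval 9.06 to 26.5%). Its level was 319 CPM in moLCs against 99.1 CPM in eLCs, with a log2 ratio of 1.69. The ratio was 2.55 on plate 1 and 0.90 on plate 2, where it missed the 2-fold of the size rule.

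Single cells carried much of the Mmp12 sum. The lowest of the 28 moLCs with a read held 16 reads, the median 887 and the highest 31682, which is 33% of all Mmp12 reads of moLCs, and the ratio without that cell was 1.12. The moLC with the second highest value, 20648 reads, was one of the cells with reads on more than 6000 genes, and it held only 94 Cd207 reads. That moLC also had 3074 reads of Timp1, 1800 of Mmp14 and 250 of Timp2. Without the 5 cells that stood apart, the Mmp12 ratio was 1.28 (2.01 on plate 1 and 0.76 on plate 2). In eLCs, the first 3 cells held 68.3% of the reads. Mmp1b overlaps 157 exon bases of Mmp12 on the opposite strand and had 3 reads in all.

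Mmp14 (ENSMUSG00000000957, chr14:54431612-54445364), the membrane-type protease that works with TIMP2 on MMP2, was read in 57 moLCs (55.3%, interval 45.2 to 65.1%) and 34 eLCs (43%, interval 31.9 to 54.7%). Its level was 102.96 CPM in moLCs against 53.6 CPM in eLCs, with a log2 ratio of 0.94, with 0.45 on plate 1 and 1.37 on plate 2. The reads were spread over many cells, so that leaving out each in turn gave 0.83 to 1.14. In cells with a read, the lowest was 4 reads, the median 410 and the highest 2559 in moLCs, and 16, 223 and 1616 in eLCs. Mmp14 was thus higher in moLCs on both plates, by less than 2-fold on plate 1.

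Mmp2 (ENSMUSG00000031740, chr8:92827291-92853420), gelatinase A, was nearly absent. Its reads lay in 1 moLC of plate 1 with 155 reads and 1 eLC of plate 1 with 50 reads, that is 0.516 and 0.230 CPM, and no cell of plate 2 had one. The eLC was one of the cells with reads on more than 6000 genes, and without the 5 cells that stood apart no eLC had a read and the log2 ratio was at least 5.23. The ratio of 1.17 turned sign when the moLC was left out (-4.51), so no direction can be given. No cell had reads of both Mmp2 and Timp2, and of the 26 moLCs with Timp2, 13 also had a read of Mmp14 (50%, against 55.3% of all moLCs). The genes of all 3 members of the MMP14, TIMP2 and MMP2 set were therefore never read together in 1 cell. With Mmp2 read in only 1 moLC and 1 eLC, that outcome was nearly fixed beforehand and says nothing about the set.

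**Figure D3:**
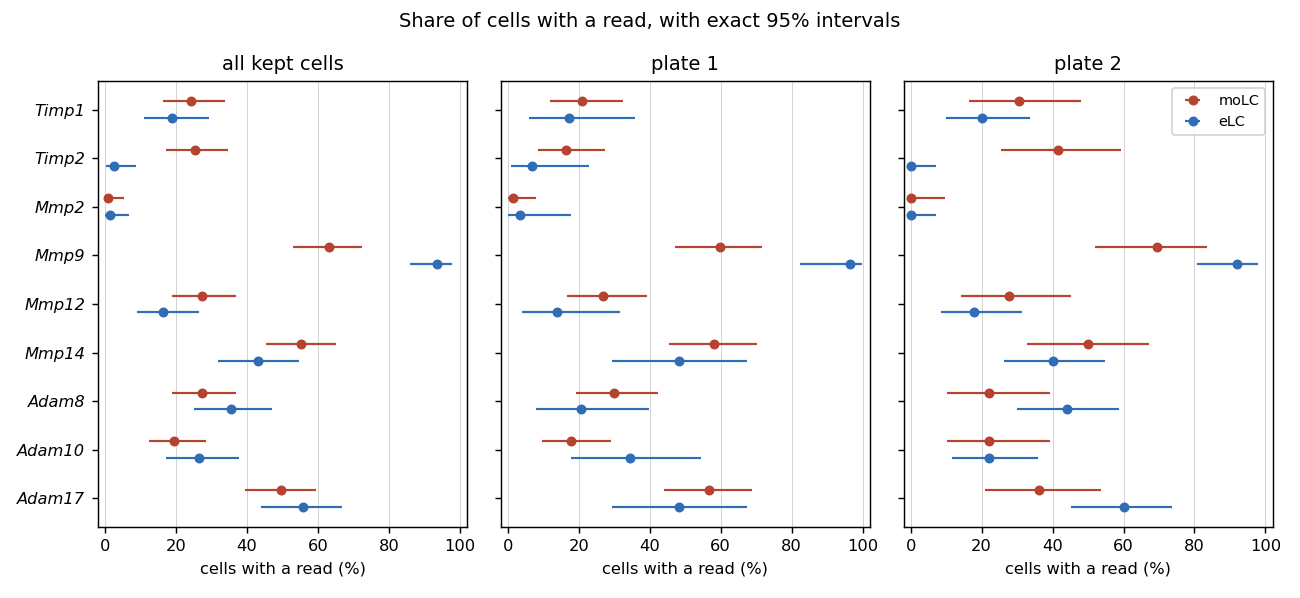
Share of cells with a read of each gene (points) with exact 95% intervals (bars), in moLCs (red) and eLCs (blue), in all kept cells, on plate 1 and on plate 2. For Mmp9 the moLC share lies below the eLC share in each panel (63.1% against 93.7% in all cells), and for Timp2 above it (25.2% against 2.53%).

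The sheddases showed no difference that held on both plates. Adam17 (ENSMUSG00000052593, chr12:21323509-21373632), the convertase that releases TNF, was read in 51 moLCs (49.5%, interval 39.5 to 59.5%) and 44 eLCs (55.7%, interval 44.1 to 66.9%), at 40.3 and 52.1 CPM. The log2 ratio was -0.37 in all cells, 0.37 on plate 1 and -1.16 on plate 2. On plate 2 its share was 36.1% of moLCs and 60% of eLCs, and on plate 1 it was 56.7% and 48.3%. Iah1 shares 311 exon bases with Adam17 on the opposite strand and had 10329 reads, and the library is not stated to keep strand, so reads in that stretch cannot be assigned to either gene.

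Adam10 (ENSMUSG00000054693, chr9:70678997-70780229), the main sheddase of Notch receptors and of E-cadherin, was read in 20 moLCs (19.4%, interval 12.3 to 28.4%) and 21 eLCs (26.6%, interval 17.3 to 37.7%). Its level was 10.3 and 9.57 CPM, a log2 ratio of 0.11, with -0.37 on plate 1 and 0.26 on plate 2. One moLC of plate 1 held 34% of the reads of moLCs, and without it the ratio was -0.48. With at least 10 reads asked for, the shares were 16.5% in both origins.

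Adam8 (ENSMUSG00000025473, chr7:139978932-139992562), a sheddase of leukocytes, was read in 28 moLCs (27.2%, interval 18.9 to 36.8%) and 28 eLCs (35.4%, interval 25 to 47%). Its level was 84.9 CPM in moLCs against 131 CPM in eLCs, with a log2 ratio of -0.62, with 0.16 on plate 1 and -0.68 on plate 2. The eLC with the most reads, 7111 on plate 2, held 25% of the reads of eLCs, and without it the ratio was -0.24. The shares moved the same way as the sums, with 29.9% of moLCs and 20.7% of eLCs on plate 1 and 22.2% and 44% on plate 2. The noncoding gene Gm16201 shares 46 exon bases with Adam8 on the opposite strand and had 130 reads.

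**Figure D4:**
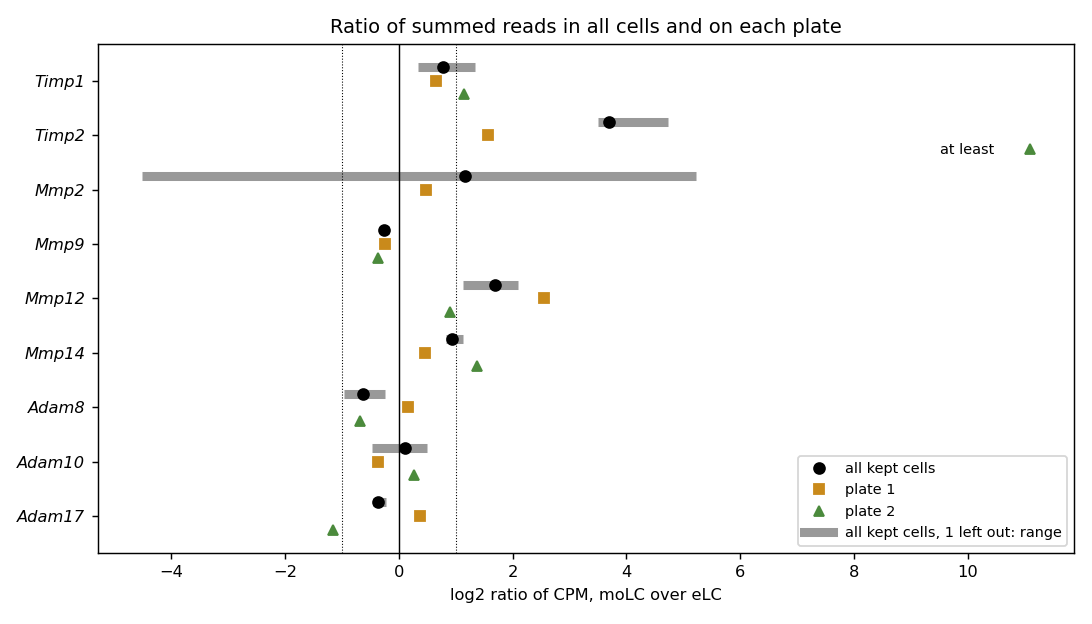
Log2 ratio of summed CPM, moLC over eLC, for each gene in all kept cells (circles), on plate 1 (squares) and on plate 2 (triangles), with the range of values when each cell is left out in turn (grey bars) and dotted lines at 2-fold. Timp2 lies beyond 2-fold in all 3 sets, at 11.10 on plate 2 with the eLCs set to 3 reads. Adam8, Adam10 and Adam17 lie on different sides of 0 on the plates, and the bar of Mmp2 spans 0 (-4.51 to 5.22).

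Levels of different genes were set side by side per kilobase of exons, as reads cover the whole transcript. The lengths are the union of all annotated exons (7237 bases for Mmp12 and 3539 for Mmp9), and the order depends on that choice. Before division by length, Mmp12 (319 CPM) stood just above Mmp9 (315 CPM) in moLCs. In moLCs the order was Mmp9 (89.1 CPM per kb), Timp1 (65.8), Mmp12 (44.1), Adam8 (18.3), Mmp14 (17.3), Timp2 (7.14), Adam17 (5.63), Adam10 (2.10) and Mmp2 (0.153). In eLCs it was Mmp9 (107 CPM per kb), Timp1 (38.5), Adam8 (28.2), Mmp12 (13.7), Mmp14 (8.99), Adam17 (7.28), Adam10 (1.95), Timp2 (0.549) and Mmp2 (0.0681). Timp2 stood sixth in moLCs and eighth in eLCs, and Mmp9 led in both. With 1 sample per origin there is no spread over samples to separate neighbours, and Adam8 and Mmp14 in moLCs differed by less than the part of the Adam8 reads that 1 cell held (21.7%).

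Cells held varied sets of these genes. The median was 3 of the 9 genes per cell in both origins, from 0 to 7 in moLCs and from 0 to 6 in eLCs, and 5 moLCs and 2 eLCs had none. Of the 26 moLCs with Timp2, 15 also had Mmp9 (57.7%, against 63.1% of all moLCs), 10 had Mmp12 (38.5%, against 27.2%) and 8 had Adam8 (30.8%, against 27.2%). Both eLCs with Timp2 had Mmp9, as did 93.7% of all eLCs. Mmp12 and Mmp14 were read together in 20 moLCs, which is 71.4% of the moLCs with Mmp12, against 55.3% of all moLCs with Mmp14. In eLCs they were read together in 4 cells, or 30.8% of those with Mmp12, against 43% of all eLCs. Of the 13 eLCs with Mmp12, 9 had Adam8 (69.2%, against 35.4% of all eLCs).

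Ccr7 (the receptor that guides LCs to lymph nodes), Lyz2 (lysozyme, a gene of the monocyte line) and Timd4 (a receptor for phosphatidylserine) were read beside these genes as landmarks. Timp2 was read in 25% of the 40 moLCs with Ccr7 and in 25.4% of the others. It was read in 30.2% of the 43 moLCs with Lyz2 and 21.7% of the others, and in 9.52% of the 21 moLCs with Timd4 and 29.3% of the others. Only 2 cells make up the Timd4 value in moLCs, and both eLCs with Timp2 had a Timd4 read, as did 75.9% of all eLCs. Mmp14 was read in 65% of the moLCs with Ccr7 and 49.2% of those without, while in eLCs it was 32.3% and 50%. Mmp9 was read in 60% of the moLCs with Ccr7 and 65.1% of those without, and in 90.3% and 95.8% of the eLCs. These shares rest on cells of 1 sample per origin and were not tested.

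The genes whose levels across moLCs were most like Timp2 were Cir1 (Spearman rho 0.47), Tmub2 (0.44), Stx8 (0.42), Tmem199 (0.40) and Snapc5 (0.40), among 6521 genes whose 99th percentile was 0.257. Cells share library and depth, most hold no Timp2 read, and the coefficients describe which cells had a read. Over all kept cells the values of the same genes ran from 0.24 to 0.32, and 3 of the 5 were again among the first 5. Of the 6 other genes of the family read in enough cells, Mmp12 was the most like Timp2 (0.19) and Adam17 the least (-0.14).

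Of the genes of the same pathways, none passed the size rule, which 2.02% of all 6522 genes passed. No list had more than 13 genes read in enough cells, so a count of 0 lies near that share and says nothing about the pathways. Of 19 other MMP genes, 13 had no read and none reached 25% of the cells of 1 origin. Mmp25, a membrane-anchored protease of leukocytes, was read in 22 moLCs and 18 eLCs at 20.8 and 12.4 CPM, and Mmp13, a collagenase, in 6 moLCs (26993 reads) and 0 eLCs. Of the Mmp13 reads, 23247 lay in 1 moLC of plate 2, which also had 358 reads of Timp2 and 5051 of Mmp12, so that the log2 ratio of at least 12.67 fell to at least 9.84 without it.

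Of 10 other ADAM genes, 3 were read in enough cells, with a median log2 ratio of 0.23 against -0.10 over all 6522 genes. Adam23, which lacks protease activity, was at 88.8 CPM in moLCs against 74.9 CPM in eLCs, and Adam9 was at 58.1 and 57.05 CPM. Of 13 sheddase regulators and convertases, 5 were read in enough cells (median -0.01), with Tspan14, a tetraspanin partner of ADAM10, at 91.1 and 104.5 CPM and Furin, a convertase that removes prodomains, at 58.4 and 84.8 CPM. Of 12 genes for docking and activation, 6 were read in enough cells (median -0.05), with Cd74, the invariant chain, at 77304 and 74931 CPM and Cd63, a tetraspanin that binds TIMP1, at 1260 and 1344 CPM. Of 25 genes whose proteins are shed by ADAM10 or ADAM17, 13 were read in enough cells (median -0.04), with Il1r2, the decoy receptor of interleukin-1, at 16888 and 17388 CPM and the chemokine gene Cxcl16 at 1780 and 1840 CPM. The medians of the last 3 lists lay within 0.10 of that of all genes.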

How the data were processed

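Epidermal LCs were sorted singly, and their cDNA was made with a Smart-Seq kit and sequenced paired-end. The authors aligned the reads with STAR to mm10 and deposited the read count of each gene in each cell, not normalized. The counting tool and annotation are not given in the sources used here. In 8 cells the deposited columns hold 9 values that are not whole, which were handled like expected counts and rounded, none of them in a gene described here. Of the values above 0, 82.9% were even, as counting both reads of a pair can give, which was not examined. No 2 cells had identical values, and each column was matched to a cell by its label.

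Cells were grouped by origin and plate, and 3 moLCs of plate 2 that exceeded 5% mitochondrial reads were dropped, following the study's methods. Summed reads per origin gave CPM. An origin at 0 was set to 3 reads over the group and the ratio given as a lower bound. Each ratio given as "at least" is a bound for that setting only, since a further cell with many reads would lower it. The study's rank-sum test treats cells as replicates and was left out. Reads without identifiers are not independent molecules, so that intervals are too narrow. The 9 genes, the pathway and marker lists and the rules were chosen with earlier results of these data known. Besides the 9 genes, those named are the 2 with the most CPM in each pathway list (Cd74 among the markers), the 5 most like Timp2, overlapping genes, Ccr7, Lyz2, Timd4 and marker genes, while the genes of the closing observations were chosen after their values were seen. Coordinates, exon lengths (the union of all annotated exons) and sequences came from GENCODE M21 (GRCm38). Comparison with RefSeq proteins was not run. The size rule was tested on simulated counts. Python 3.11.15, numpy 2.4.6, pandas 2.3.3, scipy 1.17.1 and matplotlib 3.10.9 were used, with TMM factors from edgeR 4.0.16 and median-of-ratios factors from DESeq2 1.42.0 in R 4.3.3. The alternatives were each plate, other mitochondrial limits, other scalings, equal weight for each cell, thinning to the 10th percentile of depth, a minimum of 10 reads, other limits of the size rule and each cell left out. Leaving out cells with over 6000 genes or no Cd207 read, and the rule on shares, were added after the data were seen.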

Additional observations from a re-analysis of the deposited data

Results flagged for a closer look

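The 3 moLCs of plate 2 that the mitochondrial filter left out entered no comparison, and they held reads of 5 of the 9 genes. Their summed level was 110 CPM for Timp1, 2363 CPM for Mmp12, 363.1 CPM for Mmp14, 334.2 CPM for Adam8 and 48.65 CPM for Adam17. Each lies above the 1.74 CPM that 3 reads amount to in these cells. The Mmp12 value came from 2 of the 3 cells, with at most 3350 reads in 1. Timp2, Mmp2, Mmp9 and Adam10 had 0 reads there.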

How the results depend on the processing

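With 1 sample per origin and no animal named, differences between animals and between origins cannot be told apart. The log2 ratio of Timp2 (3.70) was 1.56 on plate 1, at least 11.10 on plate 2, 3.44 with at most 2.5% of reads on mitochondrial genes, 3.46 after thinning, and 3.44 without cells with over 6000 genes or no Cd207 read, and each cell left out in turn gave 3.51 to 4.74. Under the other scalings and weights and with all deposited cells it stayed within the counting interval of the reported value. The count of genes of the family past the size rule (1) was 0 with a read asked for in at least 50% of cells, 0 without cells with over 6000 genes or no Cd207 read, 2 (Timp2 and Mmp12) with the fold asked for in all cells only, and 2 (the same genes) with equal weight for each cell. With all deposited cells it was 1, but the gene was Mmp12, since Timp2 then fell below the minimum share. Over all genes the count (132) was 1488 with no minimum share, 23 with at least 50% and 373 with the fold in all cells only. The split toward moLCs and eLCs (53 and 79) was 71 and 62 with TMM factors and 69 and 62 with median-of-ratios factors. All 9 genes kept the sign of their ratio under the settings fixed at the start other than single plates and single cells, and Adam8, Adam10 and Adam17 changed it between plates. Of 54 shares of cells recomputed with other settings than plate, 51 lay within the interval of the reported share. No paired analysis was possible because the cells of each origin carry no shared replicate number and no test was run.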

Other observations

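A few other genes of the pathway lists, chosen after their values were seen, had differences in their sums in either direction. Icam1, an adhesion receptor that ADAM17 sheds, was at 377 CPM in moLCs against 180 CPM in eLCs (log2 ratio 1.07, with 1.14 on plate 1 and 0.78 on plate 2), although its share of cells was 56.3% and 56.96%. Tnf, the cytokine that ADAM17 releases, was at 429 and 261 CPM (0.72, with 1.26 and 0.33). Rhbdf2, the gene of iRhom2, which carries ADAM17 to the cell surface, was at 43.8 and 25.6 CPM (0.77), with 0.71 on plate 1 and -0.38 on plate 2. Areg, an epidermal growth factor receptor ligand shed by ADAM17, was read in 5 moLCs and 3 eLCs at 37.4 and 2.14 CPM, with 5826 of its 11232 reads in moLCs in 1 cell. Tspan33, a tetraspanin partner of ADAM10, was read in 5 moLCs of plate 1 (1655 reads, 1062 of them in 1 cell) and in 0 eLCs. With eLCs set to 3 reads, its log2 ratio was at least 8.64, and at least 7.18 without that cell. Other genes were lower in moLCs on both plates. Adam22, an ADAM without protease activity, was at 6.53 CPM in moLCs and 12.9 in eLCs (-0.99, with -0.71 on plate 1 and -1.44 on plate 2), and leaving out its first cell gave -0.45. The convertase gene Pcsk7 was at 10.6 and 20.6 CPM (-0.96, with -1.53 and -0.35), and -0.54 without its first cell. Tspan17, another tetraspanin partner of ADAM10, was at 8.51 and 15.3 CPM (-0.84, with -1.22 and -1.16), and -0.64 without its first cell. None of these 3 reached the minimum share of 25%.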
